A study of Mus musculus with 9 samples.

Results

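The members described here are the cytosolic ribosomal protein rows of the deposited tables, in which each row is a gene symbol. They were chosen by symbol: Rpl or Rps followed by a digit, with Rpsa, Rplp0, Rplp1, Rplp2 and Fau added and the Rps6k and Rps19bp symbols left out. The rule gave 390 of 35013 rows, of which 94 were treated as genes and 296, whose symbols hold -ps, as a separate group of pseudogenes. RNA-seq with poly-A selection was run on primary epithelial cells of the mouse small intestine, sorted on Epcam, CD24 and the Tomato reporter into 3 populations with 3 libraries each: CD24negTomato+, CD24+Tomato+ and Tomatoneg. All 9 libraries came from Neurog3Cre-FoxO1 f/f; Rosa26tdtomato mice aged 4 to 6 weeks. In these mice Cre under Neurog3, a transcription factor of secretory progenitors, deletes FoxO1 and switches on Tomato in the descendants of Neurog3-expressing cells. The Tomatoneg cells therefore came from animals carrying the same alleles and were not cells of a FoxO1-intact mouse. The comparisons below are between sorted populations and not between mice of different genotypes. Because the Cre that switches on Tomato also deletes FoxO1, lineage and FoxO1 deletion differ together between Tomato+ and Tomatoneg cells and cannot be told apart. Each Tomato+ population was compared with Tomatoneg inside its own table. The same 3 Tomatoneg libraries stand in both tables, scaled separately, so the comparisons share their controls.

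Each ribosome has a small subunit, which reads the mRNA, and a large subunit, which joins amino acids, and each subunit is assembled in the nucleolus from ribosomal RNA and one copy of most of its proteins. The mRNAs of these proteins are among the most abundant in a growing cell, and most begin with a cytosine followed by a run of pyrimidines, the terminal oligopyrimidine (TOP) motif through which mTORC1 controls their translation together. In the intestine the dividing crypt cells are known for active ribosome production. Ribosomal protein mRNAs have also been copied back into the genome many times, leaving intronless processed pseudogenes whose sequence can be almost that of the parent gene.

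The libraries held between 19158348 and 39234462 estimated reads, and 3 reads corresponded to 2.10 to 4.29 normalized counts. Tomatoneg replicate 1 had 21988 rows at 0, against 16483 to 19369 in the other libraries. Goblet markers were called higher than in Tomatoneg for 8 of 8 genes in both Tomato+ populations, and enteroendocrine markers for 8 of 12 in CD24negTomato+ and 12 of 12 in CD24+Tomato+. In CD24+Tomato+ Paneth markers were called higher for 8 of 8 genes and tuft markers for 7 of 8. In CD24negTomato+ 4 of 8 tuft markers were called lower, and 7 with the replicate number in the fit as a block. All 8 Paneth markers lay below 0 there (median -1.71), with 0 called without the block and 5 called lower with it, and the block also called 2 enteroendocrine markers lower, Sst and Gip. The labels describe all populations as epithelial, yet Tomatoneg held lymphocyte markers, with sums over 13 genes of 4435 to 13150 normalized counts against 694.2 to 1363 in CD24negTomato+. Foxo1 itself had 319.2, 192.7 and 201.3 normalized counts in CD24+Tomato+ replicates 1 to 3 against 748.4, 529.2 and 444.2 in Tomatoneg (log2 difference -1.27, adjusted P = 0.0579, and 0.022 with the block), lower in every pair. In CD24negTomato+ it had 466.9, 273.8 and 371.4 against 695.5, 517.7 and 423.8 (adjusted P = 0.427, and 0.207 with the block), and reads from outside the deleted part of the gene are counted here too.

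The 94 gene rows comprised 43 large-subunit and 30 small-subunit proteins, 3 proteins of the P stalk, 2 fusions to a ubiquitin-like protein (Fau and Rps27a), and 16 paralogs and retrogenes. By GENCODE annotation on GRCm38, 87 of the gene rows were protein coding and 7 were processed pseudogenes, 2 of them transcribed. Among the pseudogene rows 8 were annotated as protein coding, including Rpl10-ps3, Rps12-ps3, Rps18-ps5 and Rps18-ps6, so the symbol and the annotation do not divide the rows in the same way. A row was tested when its mean over the 6 libraries of a table was at least 10 normalized counts. In each comparison 87 gene rows passed, whereas 29 pseudogene rows passed for CD24negTomato+ and 30 for CD24+Tomato+. Most pseudogene rows were at or near 0, with 135 of 296 at 0 in every library of the CD24negTomato+ table and 117 in the CD24+Tomato+ table. The 7 gene rows not tested were Rpl3l, Rpl10l, Rpl39l, Rpl6l, Rpl32l, Rps3a2 and Rps3a3. Rpl3l, the paralog of Rpl3 found in striated muscle, was at 0 in all 9 libraries. Rpl10l, known from testis, reached 1.33 normalized counts in Tomatoneg replicate 1 of the CD24negTomato+ table and was at 0 in the other libraries, below the level of 3 reads. Rpl39l reached 0.943 in a single library, CD24negTomato+ replicate 1. Rps3a2 reached at most 11.9 and Rps3a3 at most 6.41 in the CD24negTomato+ table.

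Replicate 1 stood apart in every population. The 87 tested genes were lower in replicate 1 than in the mean of replicates 2 and 3 for 86 genes in CD24negTomato+ (median log2 difference -0.86), 83 in Tomatoneg (-1.27) and 85 in CD24+Tomato+ (-0.88). Over all rows tested the same medians were -0.03, -0.09 and 0.08. Replicates 2 and 3 differed too, by less. The gene medians of replicate 2 minus replicate 3 were -0.45, -0.52 and -0.24 in the same order, against 0.04, 0 and -0.01 over all rows. Marker sums also differed in the replicate 1 libraries: the 9 enterocyte markers summed to 658900 normalized counts in CD24negTomato+ replicate 1 against 263200 and 296600 in replicates 2 and 3, to 704700 against 193800 and 191900 in Tomatoneg, and to 117200 against 37940 and 30100 in CD24+Tomato+. The 8 Paneth markers were lowest in replicate 1 of every population, at 18860, 38050 and 492000 in the same order of populations, against at least 46040, 149100 and 1799000 in the other replicates. The part of these in the ribosomal protein values was not tested. Because deviations from the group means were shared by same-numbered libraries, each result below is given without and with the replicate number as a block in the fit, and by same-numbered pairs. The labels do not say whether same-numbered libraries share mice or a sort, and P values measure only the spread between these libraries. The sample-sheet numbers in the library names of replicate 1 lie apart from those of replicates 2 and 3, and what those numbers mark is not stated.

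Ribosomal protein genes took a smaller share of the counts in CD24negTomato+ than in the same-numbered Tomatoneg library in all 3 pairs, and a larger share in CD24+Tomato+ in all 3 pairs. In CD24negTomato+ the 94 genes held 1.60%, 2.55% and 3.27% of all normalized counts in replicates 1, 2 and 3 (mean 2.47% ± 0.84, SD, n = 3), against 2.25%, 4.78% and 6.15% in Tomatoneg (4.39% ± 1.98). In CD24+Tomato+ they held 4.08%, 5.54% and 6.46% (5.36% ± 1.20), against 2.25%, 4.79% and 6.16% in the Tomatoneg columns of that table (4.40% ± 1.98). The ranges overlapped in both comparisons, and the Tomatoneg values were spread over more than the difference between populations. By pair, the CD24negTomato+ share was 0.710, 0.533 and 0.532 times that of Tomatoneg, and the CD24+Tomato+ share 1.81, 1.16 and 1.05 times. The mean of the 3 pair differences was -1.92 percentage points (SD 1.15) for CD24negTomato+ and 0.958 (SD 0.787) for CD24+Tomato+, and these shares were not tested. Pseudogene rows held 0.193%, 0.287% and 0.369% of counts in CD24negTomato+ against 0.294%, 0.536% and 0.711% in Tomatoneg, and 0.495%, 0.613% and 0.747% in CD24+Tomato+. They made up between 9.97% and 11.6% of all member counts in every library. These are shares of bulk RNA, in which fewer cells rich in these mRNAs and less of these mRNAs per cell cannot be told apart, and a share also depends on every other transcript.

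**Figure D1:**
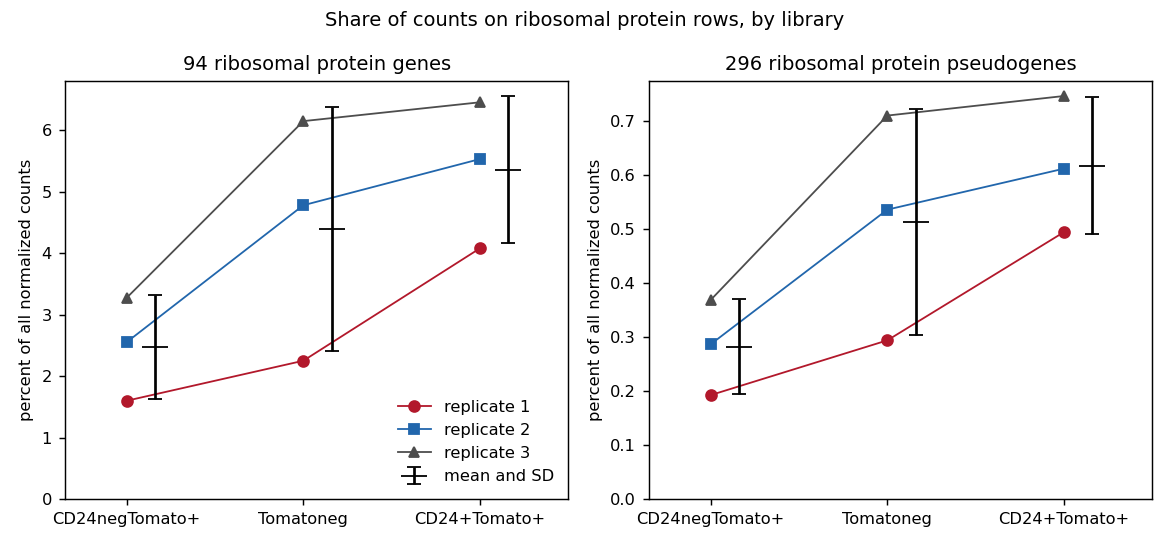
Percent of all normalized counts held by ribosomal protein genes and by ribosomal protein pseudogene rows in each library, with lines joining libraries of the same replicate number and bars for the mean and SD of 3 libraries. For genes every CD24negTomato+ library lies below its same-numbered Tomatoneg library (1.60% against 2.25% in replicate 1) and every CD24+Tomato+ library lies above it (4.08% against 2.25%), while replicate 1 is lowest in every population.

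Levels of different genes were compared only after division by transcript length. In Tomatoneg the highest per kilobase was Rpl41, the smallest ribosomal protein, at 52890 ± 30420 normalized counts per kb (SD, n = 3), followed by Rps2 (47320 ± 25650), Rplp1 (43840 ± 23720), Rplp0 (39480 ± 18230) and Rplp2 (35460 ± 9675). These 5 were measured in the same libraries, so the SDs between libraries do not say whether they differ from each other, which was not tested. Among the 87 tested genes the lowest was Rps23rg1, a retrogene, at 23.1 normalized counts per kb. Rpl5, a core protein that carries the small ribosomal RNA of the large subunit together with Rpl11, followed at 280.0 ± 21.0, and Rpl12 (400.6) was the next core protein. These levels are of gene rows alone, divided by the length of a single annotated transcript, 2045 bases for Rpl5 and 1242 for Rpl12. Pseudogene rows held 93.6% of the Rps12 family and 80.5% of the Rpl27 family, whose gene rows stood at 2024 and 1394 per kb. The part of transcript choice and of shared sequence in this order was not tested.

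No ribosomal protein gene passed the test between CD24negTomato+ and Tomatoneg when the replicate number was not in the fit, although 80 of 87 differences lay below 0. The test was limma on log2(normalized count + 1), with Benjamini-Hochberg adjustment over all 13420 rows tested and a threshold of 0.05. It called 0 genes higher (0.999% of all rows were called higher) and 0 lower (0.32% of all rows were called lower), with 1 of 87 at an unadjusted P under 0.05. The median log2 difference over the 87 genes was -0.52 (quartiles -0.66 and -0.39), whereas the median over all rows was 0.08, with 6058 rows below 0 and 7362 above. With the replicate block 21 genes were called lower and 0 higher, beside 2.96% of all rows called lower and 4.34% called higher, and 54 of 87 genes had an unadjusted P under 0.05. Counted without a test, 57 genes were lower in all 3 same-numbered pairs and 0 were higher in all 3, whereas 23.6% of all rows were lower and 28.7% higher in all 3 pairs. The pair medians were -0.32, -0.64 and -0.68 in replicates 1, 2 and 3. Leaving out a single library moved the gene median from -0.52 to -0.95 (without Tomatoneg replicate 1), -0.81 (without CD24negTomato+ replicate 3), -0.22 (without CD24negTomato+ replicate 1) or -0.19 (without Tomatoneg replicate 3), and it stayed below 0.

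The number of blocked calls depended on which pair was in the fit. Without replicate 1 the block called 58 genes lower (6.36% of all rows), and these included the 21. Without replicate 2 it called 0 genes (0.455% of all rows), and without replicate 3 it called 5, namely Rpl8, Rplp0, Rplp2, Rps2 and Rpsa (1.63% of all rows). With each library scaled to an equal total the block called 44 genes lower, including the 21 (6.12% of all rows), and with quantile normalization 24, including 19 of the 21 (5.83% of all rows). When pseudogene rows were added to their parent gene before the fit, 21 genes were again called lower, 20 of them shared (2.93% of all rows), and Rps16 was the one lost (adjusted P = 0.0638).

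The P stalk, the flexible arm of the large subunit that recruits elongation factors, had the lowest median of the 5 role groups in CD24negTomato+, at -0.94. Rplp2 stood at 5054, 5920 and 12160 normalized counts in replicates 1, 2 and 3 of CD24negTomato+ against 12880, 12280 and 19620 in Tomatoneg. All 3 CD24negTomato+ libraries lay below all 3 Tomatoneg libraries, by a narrow margin (log2 difference -1.03, SE 0.38, adjusted P = 0.222). With the block the adjusted P was 0.0254. Rplp0, the base of the stalk, had 17750, 22510 and 44660 against 33810, 45660 and 81360. The groups overlapped through CD24negTomato+ replicate 3, while every pair was lower (-0.94, SE 0.46, adjusted P = 0.345, and 0.0183 with the block). Rplp1, the partner of Rplp2, had 9897, 12170 and 23210 against 9941, 22080 and 33610, with no difference in pair 1 and lower values in pairs 2 and 3 (-0.47, adjusted P = 0.667, and 0.168 with the block). The share of ribosomal protein gene counts held by these 3 genes was 7.04% ± 1.15 in CD24negTomato+, 8.48% ± 1.36 in Tomatoneg and 8.16% ± 0.464 in CD24+Tomato+, overlapping between populations.

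Among the 30 small-subunit genes, 8 were called lower in CD24negTomato+ with the block, the median was -0.52, and 20 were lower in all 3 pairs. Rpsa, which is also known as the laminin receptor, had the lowest blocked adjusted P of all genes, 0.0168. It had 12790, 19410 and 31950 normalized counts against 27450, 36040 and 62130 in Tomatoneg. The groups overlapped, and the pair differences were close to each other, at -1.10, -0.89 and -0.96 on the log2 scale (unblocked -0.98, SE 0.44, adjusted P = 0.304). Rps2 had 14500, 20990 and 33920 against 22950, 44760 and 73970, again lower in each pair with overlapping groups (-0.96, SE 0.49, adjusted P = 0.365, and 0.0252 with the block). The other small-subunit genes called with the block, named here after their values were seen, were Rps15a, Rps18, Rps10, Rps16, Rps26 and Rps3. Rps6, the substrate of the S6 kinases, was not called: it had 4263, 8056 and 9825 against 4357, 12650 and 17530, so that pair 1 was nearly level and pairs 2 and 3 were lower (-0.51, adjusted P = 0.667, and 0.14 with the block). Pseudogene rows held 54.3% of the Rps6 family, whose sum was 8321, 17020 and 19390 against 15820, 26240 and 37290. That sum was lower in every pair (log2 difference -0.83), so the near-level pair 1 holds for the gene row only. Rps27, a zinc-finger protein of the small subunit, was among the 5 largest positive differences at 0.04, with 6282, 9486 and 12810 against 3261, 12280 and 17710. It was higher in pair 1 and lower in the other pairs.

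The 43 large-subunit genes had a median of -0.54, with 11 called lower under the block and 30 lower in all 3 pairs. Among the called genes, again named after their values were seen, were Rpl8, Rpl32, Rpl13a, Rpl11, Rpl14, Rpl3, Rpl28, Rpl35, Rpl19 and Rpl7a. Rpl8 had 9129, 11910 and 18750 normalized counts against 15370, 21420 and 32820 (-0.80, SE 0.38, adjusted P = 0.33, and 0.0227 with the block). Each CD24negTomato+ library was below its pair, while replicate 3 exceeded the lowest Tomatoneg library. Rpl11, which with Rpl5 can bind the p53 regulator Mdm2 when ribosome assembly is disturbed, had 5729, 8569 and 11530 against 9399, 12800 and 18370 (-0.65, adjusted P = 0.381, and 0.0357 with the block). Rpl5 did not share that pattern of pairs, with 361.4, 944.7 and 577.8 against 602.1, 592.3 and 523.3 (0.03, adjusted P = 0.98). Rpl41 had 14680, 16660 and 30940 against 9111, 24670 and 35560, higher in pair 1 and lower in pairs 2 and 3 (-0.03, adjusted P = 0.985). Rpl10, which joins the large subunit late in its maturation, had the second largest positive difference at 0.51 (adjusted P = 0.73). It had 2874, 3638 and 4223 against 754.0, 4722 and 4318, and the positive mean rested on the low Tomatoneg replicate 1.

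The 2 fusion genes had a median of -0.10. Rps27a, which is made as a fusion to ubiquitin, had 5281, 10850 and 11900 normalized counts in CD24negTomato+ against 4438, 15730 and 19040 in Tomatoneg (-0.32, adjusted P = 0.806). Fau, a fusion of a ubiquitin-like protein to the small-subunit protein Rps30, had 3107, 3092 and 5325 against 1690, 3847 and 6022 (0.13, adjusted P = 0.912). For both genes pair 1 was higher and pairs 2 and 3 were lower.

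**Figure D2:**
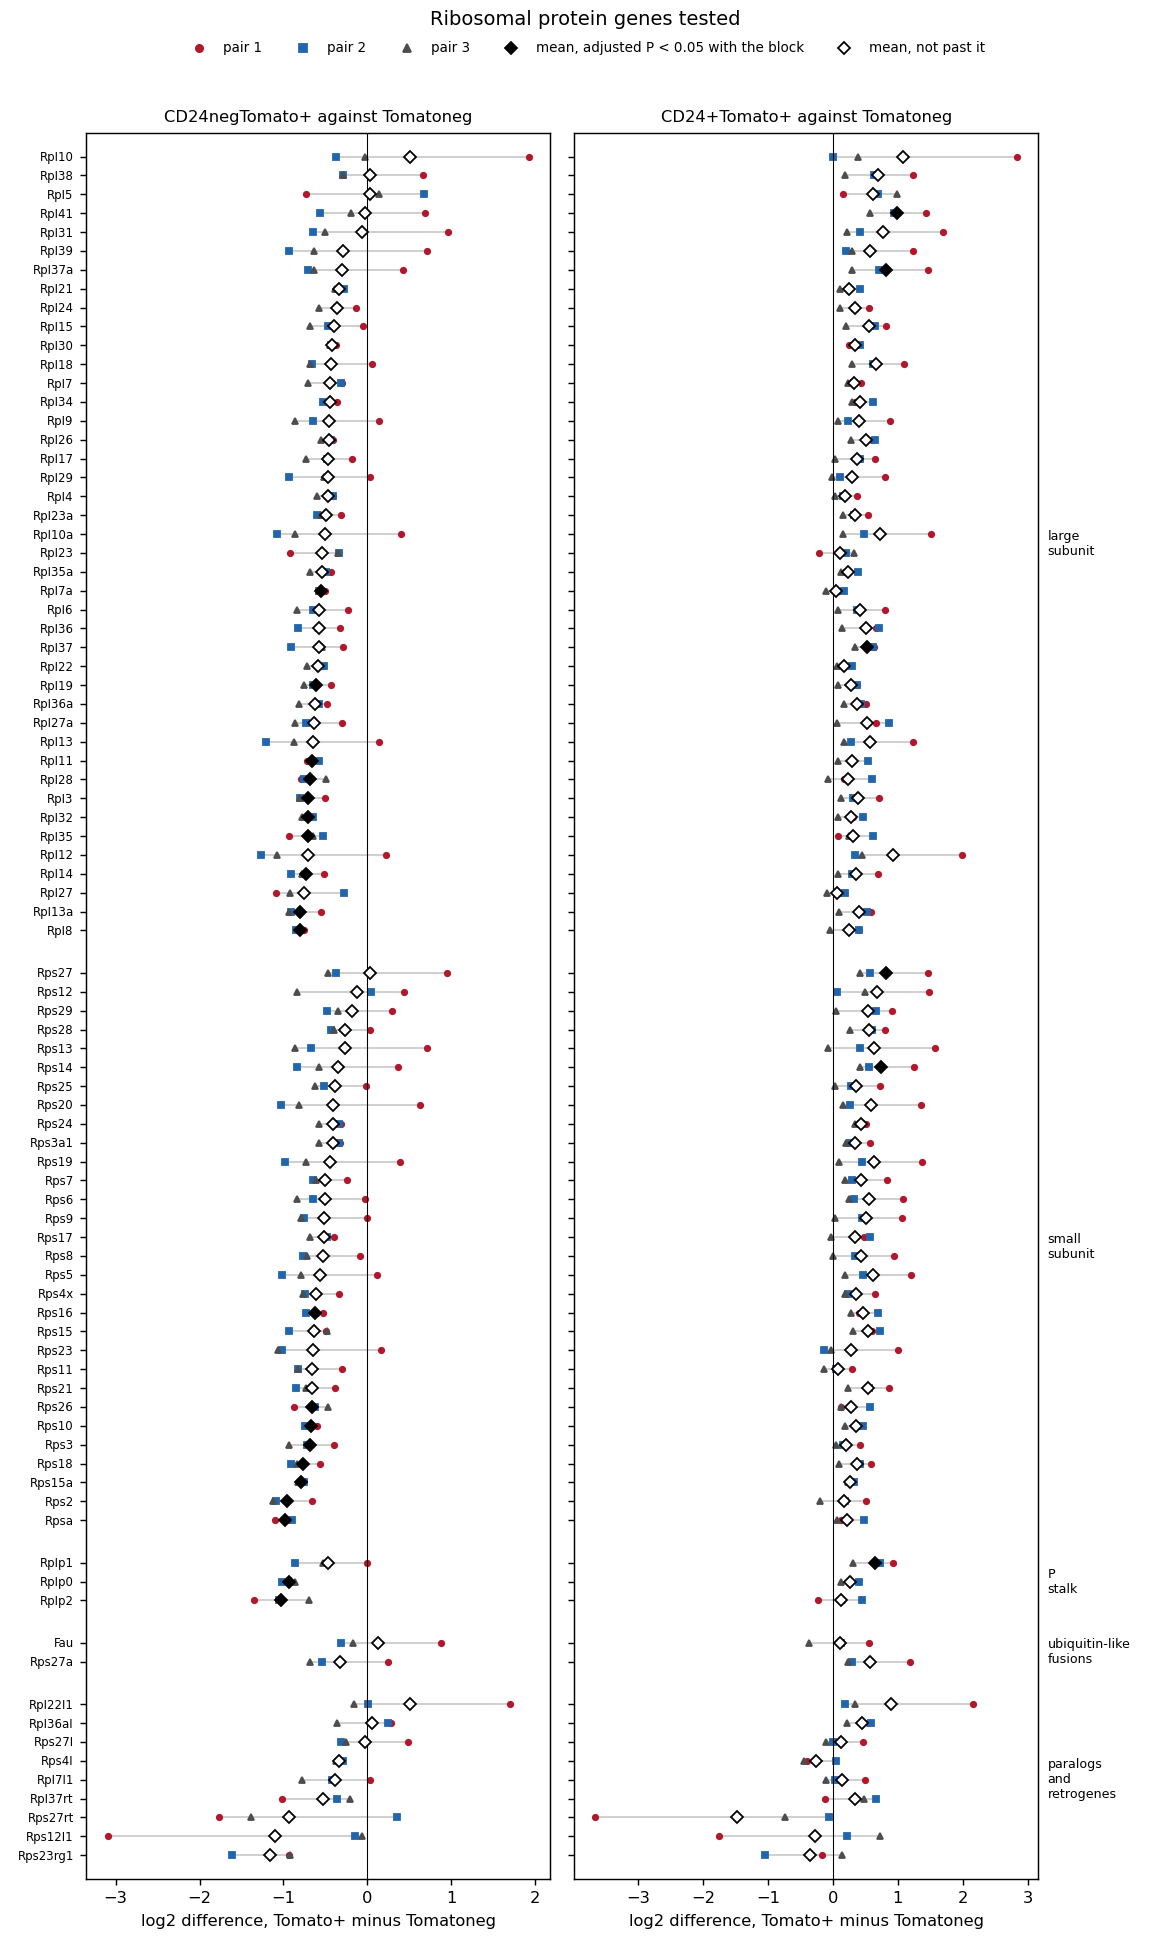
Log2 difference of tested ribosomal protein genes, by role, on the log2(normalized count + 1) scale, with small points for the 3 same-numbered pairs and a diamond for their mean, filled where the adjusted P with the replicate block was under 0.05. Most genes lie below 0 in CD24negTomato+ (80 of 87, median -0.52) and above 0 in CD24+Tomato+ (83 of 87, median 0.36).

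In CD24+Tomato+ the differences lay on the other side of 0, and again none passed without the block. Of 87 genes 83 lay above 0, with a median log2 difference of 0.36 (quartiles 0.26 and 0.55), against a median of 0.16 over the 13874 rows tested. Limma without the block called 0 genes higher and 0 lower, beside 8.02% of all rows called higher and 4.89% called lower, with 1 gene at an unadjusted P under 0.05. With the block 6 genes were called higher and 0 lower, a smaller share than the 10.8% of all rows called higher and beside 9.95% called lower. Without a test, 66 genes were higher in all 3 pairs and 1, Rps27rt, was lower in all 3, against 34.3% and 24.1% of all rows. The pair medians were 0.58, 0.41 and 0.16 in replicates 1, 2 and 3, against 0.17, 0.06 and 0.13 over all rows. The direction of the unpaired values depended on Tomatoneg replicate 1: without it the gene median was -0.02 and the difference in the mean share of counts -0.116 percentage points. That fit kept CD24+Tomato+ replicate 1, which was also low in these genes. With both replicate 1 libraries left out, the gene median was 0.27 and 78 of 87 genes lay above 0 (median of all rows 0.12). The median was 0.69 without CD24+Tomato+ replicate 1, 0.16 without CD24+Tomato+ replicate 3 and 0.72 without Tomatoneg replicate 3.

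The 6 genes called with the block were Rpl41, Rpl37 and Rpl37a of the large subunit, Rps14 and Rps27 of the small subunit, and Rplp1 of the P stalk. Rpl41 had 26680, 48970 and 56170 normalized counts in CD24+Tomato+ against 9903, 25470 and 37650 in Tomatoneg. Each CD24+Tomato+ library exceeded its pair, while replicate 1 lay inside the Tomatoneg range (log2 difference 0.98, SE 0.55, adjusted P = 0.291, and 0.0202 with the block). Rps14, whose human counterpart is lost in the 5q deletion of myelodysplastic syndrome, had 13710, 19780 and 28620 against 5751, 13480 and 21390 (0.74, blocked adjusted P = 0.043). Rps27 had 9849, 18900 and 25200 against 3558, 12730 and 18820 (0.82, blocked adjusted P = 0.046). Rplp1 had 20570, 37470 and 44030 against 10780, 22750 and 35510 (0.65, blocked adjusted P = 0.0495). In all 4 genes the groups overlapped and every pair was higher. Rpl37 (0.52, blocked adjusted P = 0.0442) and Rpl37a (0.82, blocked adjusted P = 0.0497), both zinc-finger proteins, are named with Rps14 after their values were seen.

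These 6 calls moved with the settings. The block called 3 genes higher without replicate 1, namely Rpl37rt, Rpl41 and Rpl5 (12.6% of all rows), 7 without replicate 2 (7.88% of all rows) and 6 without replicate 3 (6.44% of all rows). Of the 6 genes, 1, 4 and 3 were called again in these fits. With equal totals only Rpl41 was called (8.1% of all rows), whereas quantile normalization called 25 genes (12.4% of all rows) with 4 of the 6 among them and Rpl41 not among them (adjusted P = 0.105). Adding pseudogene rows to their parents left the same 6 genes called (11% of all rows).

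The remaining members of the P stalk and the fusions did not pass either fit in CD24+Tomato+. Rplp0 had 43600, 62100 and 93110 normalized counts against 36510, 46840 and 85580 (0.26, adjusted P = 0.761), and Rplp2 had 11890, 17140 and 22640 against 13910, 12600 and 20630 (0.12, adjusted P = 0.851). Rpsa had 32350, 51280 and 68260 against 29670, 37000 and 65400 (0.22, adjusted P = 0.786). Rpsa and Rplp0 were a little higher in every pair and Rplp2 was lower in pair 1, all with differences under their SE. Rps6 had a difference of 0.55 (adjusted P = 0.557), Rps27a 0.57 (0.568), Rpl11 0.29 (0.618) and Fau 0.10 (0.909). With its pseudogene rows added, the Rps6 family sum had a log2 difference of 0.21. Rpl7a, at 0.04, had the fifth lowest difference. Rpl5 was the one gene whose groups did not overlap, with 696.2, 943.6 and 1054 against 624.8, 583.8 and 528.9 (0.61, SE 0.25, adjusted P = 0.166, and 0.117 with the block). The share of all rows tested whose groups did not overlap was not computed. Rpl10 had the largest positive difference, 1.08 (SE 0.64, adjusted P = 0.329). It had 5826, 4827 and 5944 against 812.3, 4833 and 4531, so pair 1 was far higher, pair 2 level and pair 3 a little higher. Rpl12, which lies at the base of the stalk, had 595.6, 874.3 and 868.5 against 148.6, 693.5 and 636.3 (0.93, adjusted P = 0.36), also with the largest pair difference in replicate 1.

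**Figure D3:**
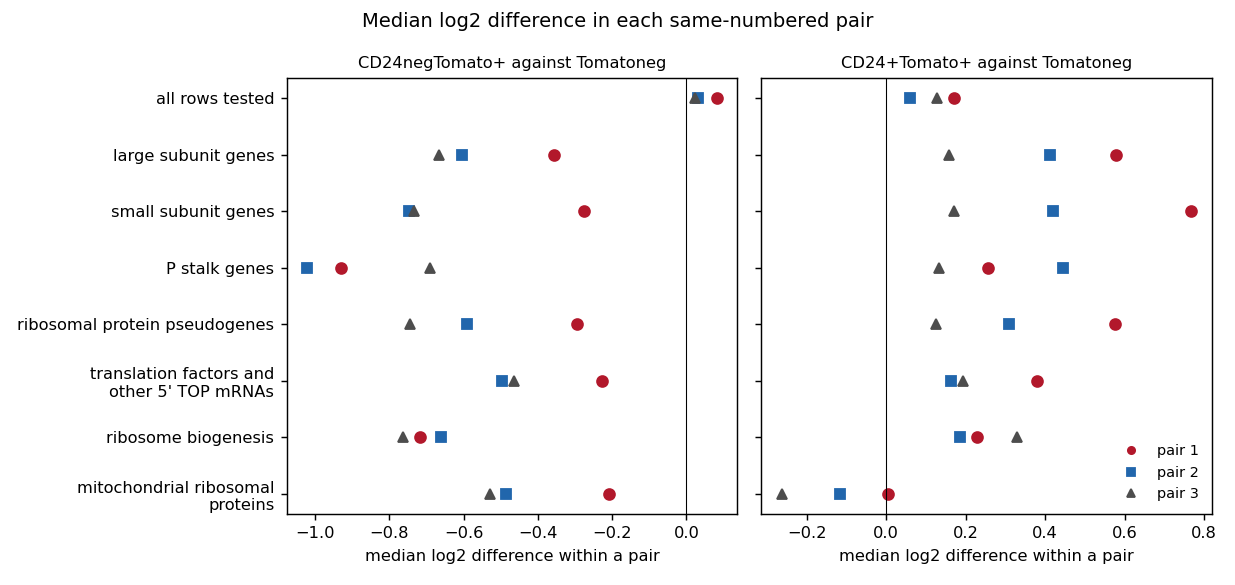
Median log2 difference in each same-numbered pair of libraries, for all rows tested, the large-subunit, small-subunit and P stalk genes, the pseudogene rows and 3 other gene lists. Large-subunit genes lie below 0 in the 3 CD24negTomato+ pairs (-0.36, -0.60 and -0.67) and above 0 in the 3 CD24+Tomato+ pairs (0.58, 0.41 and 0.16), while all rows stay between 0.02 and 0.17.

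Of the 16 paralogs and retrogenes 9 were tested, with 7 of 9 differences below 0 and a median of -0.39 in CD24negTomato+, and with 5 of 9 above 0 and a median of 0.12 in CD24+Tomato+. None was called with or without the block in either comparison. At an unadjusted P under 0.05 the fit without the block found 1 gene among all 87 in each comparison. Rpl22l1, the paralog of Rpl22, had 1046, 2513 and 1908 normalized counts in CD24negTomato+ against 321.7, 2503 and 2138 (0.51, adjusted P = 0.763), the largest positive difference of that comparison, and 1551, 2916 and 2863 in CD24+Tomato+ against 348.0, 2572 and 2253 (0.89, adjusted P = 0.484). In both comparisons the difference came mostly from pair 1. Rpl36al, the paralog of Rpl36a, had differences of 0.05 and 0.45 in CD24negTomato+ and CD24+Tomato+, Rps27l, the paralog of Rps27, -0.03 and 0.12, Rpl7l1, a homolog of Rpl7, -0.39 and 0.14, and Rps4l, a copy of the Rps4x gene, -0.34 and -0.27. Rps27rt, a retrogene of Rps27, had 23.2, 269.1 and 198.3 against 81.3, 210.8 and 519.9 in CD24negTomato+ (-0.93, adjusted P = 0.674), and 6.08, 209.8 and 330.9 against 88.5, 218.1 and 551.7 in CD24+Tomato+ (-1.48, adjusted P = 0.558). It was lower in every CD24+Tomato+ pair but in pair 2 only slightly. Rps23rg1, a retrogene of Rps23, had 14.5, 11.2 and 5.87 against 28.5, 36.3 and 12.0 in CD24negTomato+ (-1.16, SE 0.86, adjusted P = 0.522) and a difference of -0.36 in CD24+Tomato+, at levels of few reads. Rpl37rt, a retrogene of Rpl37, with 1084, 1585 and 1791 against 2202, 2039 and 2075 in CD24negTomato+, was a row whose groups did not overlap (-0.53, adjusted P = 0.327, and 0.153 with the block).

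Rps12l1 was the other row, with Rplp2 and Rpl37rt, whose groups did not overlap in CD24negTomato+. The share of all rows tested without overlap was not computed here either, so the gap does not set these rows apart. Rps12l1 had 511.4, 2924 and 2975 normalized counts in CD24negTomato+ against 4380, 3253 and 3108 in Tomatoneg (-1.10, SE 0.65, adjusted P = 0.418), and 1415, 3910 and 5420 in CD24+Tomato+ against 4766, 3362 and 3294 (-0.27, adjusted P = 0.753). The difference in CD24negTomato+ lay almost wholly in pair 1, at -3.10 on the log2 scale, against -0.15 and -0.06 in the other pairs. Over their coding sequence the rows Rps12, Rps12-ps3 and Rps12l1 are identical, so reads from that stretch cannot be assigned to one of them. Their shared bases 170 to 229 of the coding sequence, in GRCm38, are shown to make that plain, with no letter in capitals because none differs, beside the coordinates of each whole gene.
Rps12, chr10:23785183-23787275, minus strand: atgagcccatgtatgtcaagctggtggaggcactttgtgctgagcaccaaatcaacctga
Rps12-ps3, chr19:59322290-59322783, plus strand: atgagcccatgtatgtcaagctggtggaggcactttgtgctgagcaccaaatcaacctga
Rps12l1, chr7:56014016-56014414, plus strand: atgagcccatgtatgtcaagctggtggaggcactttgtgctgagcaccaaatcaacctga

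Other genes of protein synthesis were read from lists of their own, beside the percentages of all rows given above. Of 25 translation factor and other TOP mRNAs tested, 21 lay below 0 in CD24negTomato+ (median -0.39). None was called without the block, and with it 5 were called lower and 1 higher. The one called higher was Vim, an intermediate filament gene of mesenchymal and some other cells whose mRNA is of the TOP class, with 436.6, 773.2 and 539.7 normalized counts against 218.6, 371.3 and 216.3 (1.12, blocked adjusted P = 0.0485). Rack1, a scaffold protein on the small subunit, had 10620, 14960 and 27500 against 16390, 27230 and 47080 (-0.76, adjusted P = 0.455, and 0.0289 with the block), and Eef1g, a subunit of the elongation factor that reloads Eef1a1, had a difference of -0.79 (blocked adjusted P = 0.0308). Eef2, the translocation factor, missed the threshold (-0.63, blocked adjusted P = 0.0515), and Eef1a1 (-0.25) lay nearer to 0. The lowest difference was that of Nap1l1, a histone chaperone gene (-1.51, blocked adjusted P = 0.0743), and the second highest that of Eif4a2, an RNA helicase of initiation (0.85, blocked adjusted P = 0.068). In CD24+Tomato+ the median of this list was 0.28, with 1 gene called higher, Vim, with and without the block (2416, 2546 and 2364 against 253.3, 408.5 and 244.1, log2 difference 3.05, adjusted P = 0.00172). Nap1l1 (0.61), Rack1 (0.46), Eef1a1 (0.28), Eef2 (-0.00), Btf3 (-0.09) and Eif4b (-0.27) were not called there.

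The ribosome biogenesis list, which holds nucleolar assembly factors, had a median of -0.65 in CD24negTomato+, with 49 of 58 genes below 0. No gene was called without the block and 13 were called lower with it. Nop56, a core protein of the particles that guide ribosomal RNA methylation, had 264.7, 655.2 and 588.1 normalized counts against 1592, 1607 and 1794 (-1.83, adjusted P = 0.0623, and 0.0249 with the block). Nle1, an assembly factor of the large subunit, had 94.4, 106.7 and 100.5 against 439.4, 275.3 and 437.7 (-1.89, adjusted P = 0.0547, and 0.0357 with the block). For both genes all CD24negTomato+ libraries lay below all Tomatoneg libraries, and how many of all rows did so was not computed. The highest differences of the list were those of Ddx10 (0.61) and Efl1 (0.55), neither of them called. In CD24+Tomato+ the median was 0.22 and 1 gene was called higher with the block. Ddx10 (1.09) and Gar1 (1.08) were highest there and Ltv1 (-0.48) and Dkc1 (-0.47) lowest, none of them called.

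Ribosomal proteins of the mitochondrion, which belong to a separate ribosome, had a median of -0.41 in CD24negTomato+ (71 of 80 below 0, 0 called without the block and 5 called lower with it) and -0.13 in CD24+Tomato+ (0 called without it and 2 called lower with it). Mrps26 was called lower with the block in CD24negTomato+ (538.0, 557.9 and 796.0 against 1076, 1166 and 1297, -0.92, blocked adjusted P = 0.0423). Mrpl23 had the lowest difference, -1.14, with 32.2, 62.7 and 23.7 against 64.2, 37.5 and 219.7. It was higher in pair 2 and was not called (blocked adjusted P = 0.411). At the other end were Mrpl1 at 0.48 and Mrpl53 at 0.34, neither of them called. In CD24+Tomato+ Mrps36 (-0.79, blocked adjusted P = 0.0214) and Mrpl45 (-0.67) were lowest and Mrps14 (0.68) and Mrpl53 (0.63) highest. Among 23 genes of the control of ribosomal protein mRNAs the median was -0.00 in CD24negTomato+ and 0.12 in CD24+Tomato+. Myc, a transcription factor that drives ribosome production, had 88.8, 161.5 and 277.7 normalized counts in CD24negTomato+ against 391.7, 704.2 and 1055. All 3 CD24negTomato+ libraries lay below all 3 Tomatoneg libraries (-2.06, SE 0.53, adjusted P = 0.11, and 0.0144 with the block), and Myc was the only gene of this list called there. For this gap too the share of all rows was not computed. In CD24+Tomato+ it had 465.7, 749.9 and 1222 against 410.5, 700.9 and 1076 (0.15, adjusted P = 0.864). Eif4ebp1, a repressor of cap-dependent initiation under mTORC1, had differences of -0.00 in CD24negTomato+ and 0.74 in CD24+Tomato+ (blocked adjusted P = 0.0565). Tia1, which binds TOP mRNAs under stress, was called higher in CD24+Tomato+ (1.65, adjusted P = 0.0472) and had a difference of 1.34 in CD24negTomato+ that was not called. Mycn had differences of 1.21 in CD24negTomato+ (SE 1.418, adjusted P = 0.695) and 1.48 in CD24+Tomato+ (SE 1.403, adjusted P = 0.545), neither called. It had 25.1, 11.7 and 20.2 normalized counts in CD24negTomato+ against 0, 14.9 and 34.8, at levels of few reads. Only pair 1 was higher there. In CD24+Tomato+ the largest pair difference was again in pair 1, with Tomatoneg at 0, and pair 3 was lower. Mycn, Tsc2 (-0.56 in CD24negTomato+) and, in CD24+Tomato+, Max (-0.70, blocked adjusted P = 0.0447) complete the genes that the rule names from this list beside Foxo1.

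The populations also differed in markers of other cell states, and the part of these in the ribosomal protein values was not tested. All 12 proliferation markers lay below 0 in CD24negTomato+ (median -1.66, 2 called lower without the block and 10 with it), with sums of 4067 to 6938 normalized counts against 13420 to 19800 in Tomatoneg. In CD24+Tomato+ the sums were 14600 to 22040 against 14470 to 20680. All 8 stem cell markers lay below 0 in CD24negTomato+ (sums of 3434 to 5327 against 11760 to 28840), whereas 4 of 8 did in CD24+Tomato+. Goblet markers summed to between 2107000 and 2809000 in CD24negTomato+ against 133200 to 204500 in Tomatoneg, counts that enter the denominator of each share. The Paneth markers of CD24+Tomato+ summed to between 492000 and 2126000 against 41160 to 161800, which enter that denominator too. All 9 enterocyte markers lay below 0 there (median -2.78, 5 called lower without the block and 9 with it), with sums of 30100 to 117200 against 197300 to 754400, whereas in CD24negTomato+ 8 of 9 lay above 0 (median 0.23, 0 called without the block and 1 called higher with it). Lymphocyte markers lay below 0 for 13 of 13 genes in both comparisons. No marker of these lists was at 0 in every library. Mitochondrially encoded transcripts held 10.5%, 11.3% and 15.8% of counts in CD24negTomato+, 8.51%, 8.22% and 6.95% in Tomatoneg and 6.90%, 3.44% and 5.59% in CD24+Tomato+. With those transcripts left out of the total, the mean pair difference in the gene share was -1.91 percentage points in CD24negTomato+ and 0.886 in CD24+Tomato+, close to the means with them. By pair, the CD24+Tomato+ differences were then 1.92, 0.515 and 0.222 (SD 0.909), against 1.83, 0.746 and 0.299 with them, so pairs 2 and 3 shrank.

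The first bases of the transcripts were read from RefSeq windows of GRCm38.p6 to show the motif that these mRNAs share and that the selection by symbol did not use. A cytosine at the annotated start followed by a run of C or T was present in 16 of 69 ribosomal protein genes with a window (23.2%), against 813 of 27025 genes (3.01%). Allowing the start to shift by 2 bases gave 25 of 69 (36.2%) against 2863 of 27025 (10.6%). Annotated starts are not measured starts, so the absence of the run in a window says only that it is not at that position. Each line below gives 5 bases before the start and 25 from it, 5′ to 3′ on the gene's strand, with the run in capitals. The genes shown are members called with the block that hold the run, 7 of them lower in CD24negTomato+ and Rps27 higher in CD24+Tomato+.
Rplp2, chr7:141447646-141447675, plus strand: tcttcCTTTCgccgccggacgccgccgagg
Rpl14, chr9:120571512-120571541, plus strand: tctctCTTCTCgctgagcgccgccaacatg
Rpl28, chr7:4792960-4792989, plus strand: tgtctCTCTTTCCgtctccggccgccatag
Rpl35, chr2:39005107-39005136, minus strand: ctttcCTCTTTCTCTCgaaccaggctgctt
Rps10, chr17:27635220-27635249, minus strand: cgcccCTTCCTTTCCagcctccgcctcgga
Rps15a, chr7:118116123-118116152, minus strand: gccatCTTCCCTCgccggtgagtgagtgtt
Rps18, chr17:33955641-33955670, minus strand: ccgctCTCTCTTCCacaggaggcctacacg
Rps27, chr3:90213624-90213653, minus strand: tcgctCCTTTCCggcggtgacgacctccct

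Few pseudogene rows passed the test, and many of them share their whole sequence with a parent gene. In CD24negTomato+ 26 of 29 tested rows lay below 0 (median -0.57), and 19 were lower and 0 higher in all 3 pairs. The fit without the block called 1 row lower and 0 higher, with 2 rows at an unadjusted P under 0.05, and the block called 5 lower and 0 higher, with 13 such rows. In CD24+Tomato+ 21 of 30 lay above 0 (median 0.36), and 18 were higher and 2 lower in all 3 pairs. There the fit without the block called 1 row lower and 0 higher, with 1 row at an unadjusted P under 0.05, and the block called 1 higher and 1 lower. The percentages of all rows are those given for the genes.

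Rps27a-ps3 was the row called in both comparisons with and without the block. It was listed at 0 in all 3 CD24negTomato+ libraries, against 975.5, 369.9 and 386.8 normalized counts in Tomatoneg (adjusted P = 0.00571). In CD24+Tomato+ it had 0, 23.6 and 17.7 against 1052, 379.1 and 406.5 (adjusted P = 0.0217). The groups did not overlap in either comparison, and the share of all rows tested without overlap was not computed. The fitted log2 differences, -9.02 (SE 0.75) and -6.15 (SE 1.24), depend on the pseudocount, and the first is no bound. In CD24negTomato+ 1 pseudogene row was also called lower with a pseudocount of 0.1 and without any single library. In CD24+Tomato+ no row was called lower with a pseudocount of 0.1, or without CD24+Tomato+ replicate 2, CD24+Tomato+ replicate 3 or Tomatoneg replicate 2. This processed pseudogene, annotated as Gm8430, differs from the coding sequence of Rps27a by a single base in 471, A71G, counted from 1 at the first coding base with the base of Rps27a first, and 7.0% of its 31-mers occur in no other transcript. The row therefore rests on few distinguishing reads, while Rps27a itself had 4438 to 23580 normalized counts and was called in neither comparison. Coding bases 41 to 100 of both, in GRCm38 with the base that differs in capitals, show where the rows can be told apart, and the coordinates are those of the whole gene.
Rps27a, chr11:29545846-29548109, minus strand: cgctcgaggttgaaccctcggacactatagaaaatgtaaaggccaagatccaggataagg
Rps27a-ps3, chr6:122456904-122457374, plus strand: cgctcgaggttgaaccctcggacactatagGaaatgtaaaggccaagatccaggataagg

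The other pseudogene rows called lower in CD24negTomato+ with the block were Rpl14-ps1, Rps6-ps4, Rpl28-ps1 and Rpl10a-ps1. Rps6-ps4, identical to Rps6 over the coding sequence, had 4048, 8966 and 9565 normalized counts against 11460, 13590 and 19760, with no overlap of the groups (-1.05, adjusted P = 0.225, and 0.0356 with the block). Again the share of all rows without overlap was not computed, so the gap does not set this row apart. In CD24+Tomato+ it had 9770, 17250 and 20880 against 12380, 13950 and 20800 (-0.01, adjusted P = 0.991). Rpl28-ps1, also identical to its parent Rpl28, had 4166, 5296 and 9576 against 6364, 9209 and 13680 in CD24negTomato+ (-0.64, blocked adjusted P = 0.0419), and 0.27 in CD24+Tomato+. Rpl14-ps1 had 954.7, 3215 and 3408 against 2081, 5688 and 8799 (-1.10, blocked adjusted P = 0.0208) and Rpl10a-ps1 a difference of -0.63 (blocked adjusted P = 0.0416). In CD24+Tomato+ the row called higher with the block was Rpl36a-ps2, with 1893, 3367 and 4038 against 970.3, 1831 and 3124 (0.74, blocked adjusted P = 0.0285), every pair being higher while the groups overlapped. That call was lost with equal totals (adjusted P = 0.0649) and without replicate 2 (0.103).

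Rpl10-ps3 had the highest mean of the pseudogene rows, with 10250, 15580 and 20420 normalized counts in CD24negTomato+ against 9121, 20540 and 31560 (-0.29, adjusted P = 0.791), and 17890, 29350 and 38190 in CD24+Tomato+ against 9858, 21090 and 33220 (0.51, adjusted P = 0.556). Its coding sequence is that of Rpl10. Rps12-ps3 followed, with 7548, 7526 and 15140 in CD24negTomato+ against 10640, 15580 and 22140 (-0.70, blocked adjusted P = 0.054) and a difference of 0.39 in CD24+Tomato+. Rps16-ps2, identical to Rps16 over the coding sequence, had differences of -0.59 and 0.54 that were not called. Among the lowest differences in CD24negTomato+ were Rpl19-ps11 (4.77, 0 and 0 against 1252, 10.7 and 6.22, adjusted P = 0.295), Rpl38-ps2 (0, 0 and 153.6 against 0, 281.9 and 358.6), Rps18-ps3 (0 in all 3 against 61.5, 1.06 and 4.10) and Rpl15-ps6 (-1.33). None of these was called. Rpl19-ps11, Rpl38-ps2, Rps18-ps3 and Rpl14-ps1 were also the lowest after Rps27a-ps3 in CD24+Tomato+, at -2.99, -2.25, -1.09 and -0.27, and none was called. Rpl34-ps1 was among the highest in both comparisons, at 0.26 and 0.98, with neither called.

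**Figure D4:**
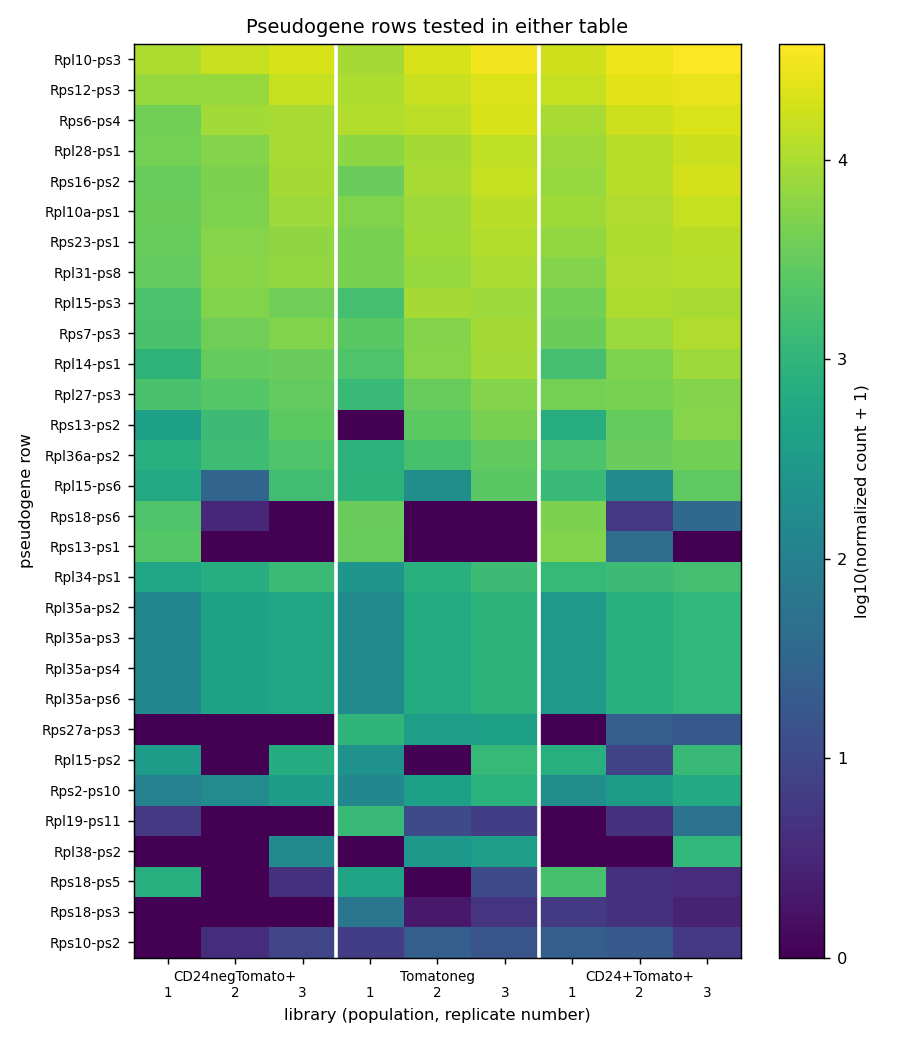
Level of each pseudogene row tested in either table (vertical axis) in the 9 libraries (horizontal axis, by population and replicate), with color giving log10(normalized count + 1) and the Tomatoneg columns taken from the CD24negTomato+ table. Rps27a-ps3 is present in the 3 Tomatoneg libraries (369.9 to 975.5) and at 0 in the 3 CD24negTomato+ libraries, while Rps13-ps1, Rps18-ps5 and Rps18-ps6 are high in replicate 1 of every population and Rpl15-ps2 is near 0 in replicate 2.

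A set of pseudogene rows followed the replicate number and not the population, a pattern looked for after the values were seen. A row was counted when all 3 libraries of one number lay over 10-fold above or below the other 6, with values below 1 normalized count in those 6 taken as 1 in a test for higher rows. This held for 4 of the 29 pseudogene rows tested in both tables and for 0 of the 87 genes, against 21 of 13239 rows in all (0.159%). Rps13-ps1 had 2341 to 5236 normalized counts in the replicate 1 libraries and 0 to 41.9 in the others. Rps18-ps6 had 2098 to 4699 against 0 to 35.2, and Rps18-ps5 478.8 to 1750 against 0 to 10.4. Rpl15-ps2 had 0 to 7.64 in the replicate 2 libraries and 221.2 to 1271 in the others. The positive differences of Rps13-ps1 (1.99), Rps18-ps6 (2.69) and Rpl15-ps2 (1.60) in CD24+Tomato+ had SEs above 2.8 and were not called. Rps13-ps2 had the opposite gap, being at 0 in Tomatoneg replicate 1 against 2659 and 4409 in replicates 2 and 3, which gave it the largest positive differences of all pseudogene rows (2.31 in CD24negTomato+, adjusted P = 0.719, and 3.31 in CD24+Tomato+, adjusted P = 0.522). The cause of these patterns was not tested.

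Rps13 and Rps18, the parents of 4 of these rows, were lowest in the replicate 1 libraries. Rps13 had 1223, 4444 and 5903 normalized counts in CD24negTomato+ against 744.7, 7067 and 10730 in Tomatoneg, and with its pseudogene rows added the family had 3947, 5821 and 8630 against 4025, 9728 and 15140. The log2 difference was -0.27 for the gene row and -0.53 for the sum. Rps18 had 2921, 8004 and 12730 against 4314, 15040 and 22820, and its family sum was 5756, 8007 and 12730 against 8215, 15040 and 22840. In replicate 1 the pseudogene rows thus held a large part of each family, and in replicates 2 and 3 of Rps18 almost none. The stretches below, in GRCm38 with bases that differ from the parent in capitals, show what separates the rows, with the coordinates of the whole gene. They cover coding bases 390 to 449 of Rps13 and 318 to 377 of Rps18. Rps13-ps1 has T411C and A429G relative to Rps13, Rps13-ps2 has no difference in this stretch, Rps18-ps5 has A337C relative to Rps18, and Rps18-ps6 has A337C and G371A.
Rps13, chr7:116331505-116334195, minus strand: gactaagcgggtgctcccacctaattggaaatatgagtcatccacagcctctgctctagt
Rps13-ps1, chr8:87047689-87048226, plus strand: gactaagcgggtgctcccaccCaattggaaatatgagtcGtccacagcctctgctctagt
Rps13-ps2, chr7:88530446-88530898, minus strand: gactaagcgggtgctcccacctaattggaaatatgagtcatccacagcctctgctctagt
Rps18, chr17:33951999-33956001, minus strand: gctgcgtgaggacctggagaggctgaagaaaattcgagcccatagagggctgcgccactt
Rps18-ps5, chr13:28257528-28258134, plus strand: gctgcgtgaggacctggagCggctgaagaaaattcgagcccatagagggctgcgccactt
Rps18-ps6, chr13:97760072-97760632, minus strand: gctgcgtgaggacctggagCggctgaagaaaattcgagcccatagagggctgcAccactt

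Across families, the counts of a gene and of its pseudogene rows could seldom be separated by sequence. Of the 30 pseudogene rows tested in at least one comparison, 18 had no 31-mer of their own among all annotated transcripts, and the median over these rows was 0%, with a highest value of 24.8%. The 87 tested genes had a median of 35.3%, and 1 had none. Pseudogene rows held 93.6% of the family sum for Rps12, 84.0% for Rpl10, 80.5% for Rpl27, 60% for Rps23, 54.3% for Rps6, 52.6% for Rpl10a, 52.1% for Rpl31 and 50.8% for Rps16 in the CD24negTomato+ table. For Rpl10 the sum was 13130, 19230 and 24640 normalized counts in CD24negTomato+ against 9875, 25270 and 35880 in Tomatoneg, a log2 difference of -0.18, where the gene row alone gave 0.51. Rpl35a-ps2, Rpl35a-ps3, Rpl35a-ps4 and Rpl35a-ps6 had the same value as each other in every library, 131.1, 437.7 and 555.0 in CD24negTomato+ against 157.3, 660.3 and 930.6, and all 4 carry G156A relative to Rpl35a. They count as 4 of the tested rows but hold a single measurement. Values for any one row of these families are uncertain for that reason. The family sums add only rows whose symbol holds -ps, so those of Rps12 and Rps27 leave out Rps12l1 and Rps27rt, which are identical to these parents over the coding sequence, and these sums and the percentage for Rps12 still depend on how reads were divided.

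**Figure D5:**
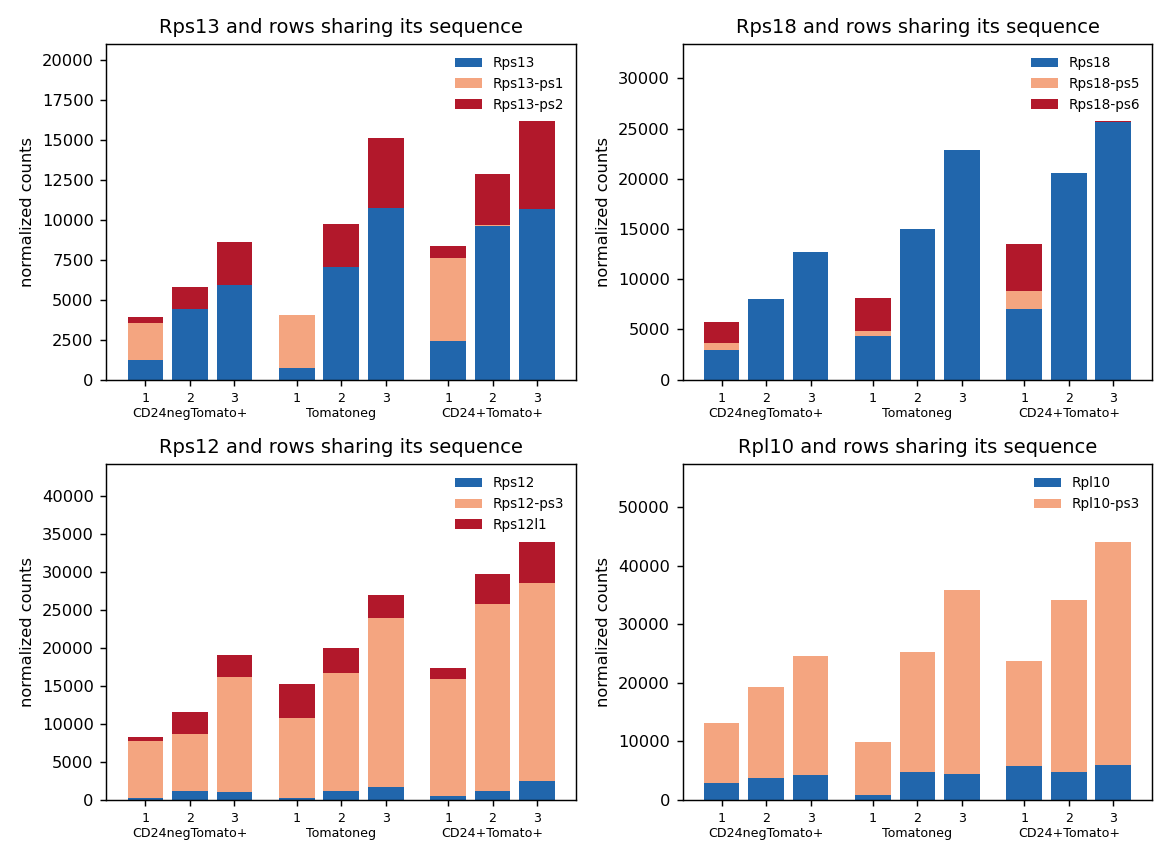
Normalized counts (vertical axis) of Rps13, Rps18, Rps12 and Rpl10 and of rows sharing their sequence, stacked in each library (horizontal axis, by population and replicate), with the Tomatoneg columns taken from the CD24negTomato+ table. In the Rps13 family pseudogene rows hold most of the replicate 1 sum (gene row 744.7 of 4025 in Tomatoneg), and in the Rpl10 family they hold 84.0% of the sum over the CD24negTomato+ table.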

How the data were processed

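Poly-A-selected RNA of 9 sorted populations (3 groups of 3 libraries, grouped by GEO's labels) was sequenced by the authors. The submitters' processing notes name bcl2fastq 2.19, kallisto 0.44.0, sleuth, DESeq2 and GRCm38, and the annotation release was not given in the sources used here. The deposited values are kallisto estimated counts per gene divided by DESeq2 size factors, a normalized signal that is not whole, in 2 tables of 6 libraries that were scaled separately. Columns matched to no sample numbered 0.

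Rows with a mean of at least 10 normalized counts were tested on log2(normalized count + 1) with limma 3.58.1 (trend on the mean, R 4.3.3), with Benjamini-Hochberg adjustment over all rows and a threshold of 0.05. Shares, pairs, families and figures were computed in Python 3.11.15 with pandas 2.3.3 and numpy 2.4.6. The fits were tested on simulated data. Same-numbered libraries were checked for pairing by the correlation of their deviations from the group means over rows: it was 0.30, 0.29 and 0.34 in the CD24negTomato+ table and 0.28, 0.18 and 0.38 in the CD24+Tomato+ table, against -0.36 to -0.03 for different numbers. Deviations within a group cancel in each row, so positive values for same numbers force negative ones among different numbers. The negative values therefore add no separate evidence of pairing. The pairing comes from the data and not from the labels, and blocked values are given beside those without the block.

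Members were matched to GENCODE M21 on GRCm38 by symbol (379 of 390), by RefSeq synonym (10, among them Rps23rg1, annotated as C330021F23Rik) or not at all (1). A pseudogene row was assigned to the gene whose symbol precedes -ps, and coding sequences of the annotated transcripts were compared by substitution and by shared 31-mers. Start windows are those of RefSeq on GRCm38.p6. Of each comparison the text names the 5 largest rises and 5 largest falls, members with a special role, paralogs, the pseudogene rows with the 5 largest rises, falls and means, and from other lists the 2 largest rises and falls and Rack1, Eef1a1, Eef2, Myc and Eif4ebp1. Some genes that were named or called are not reported here. The members, the lists and the comparisons were chosen with earlier results of these data known. Alternatives were equal totals, quantile normalization, pseudocounts of 0.1 and 10, no filter on low values, a log2 difference of at least 1, pseudogene rows added to their parent, the block, and each library left out. The block combined with another setting or with a pair left out was added after seeing the data.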

Additional observations from a re-analysis of the deposited data

Results flagged for a closer look

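The share of counts on ribosomal protein genes lay below that of the same-numbered Tomatoneg library in all 3 CD24negTomato+ pairs (mean difference -1.92 percentage points) and above it in all 3 CD24+Tomato+ pairs (0.958 percentage points). The pseudogene rows had the same arrangement, with mean pair differences of -0.231 and 0.103 percentage points. Each was singled out because every pair of one population lay on the opposite side of 0 from every pair of the other. The difference of CD24negTomato+ from CD24+Tomato+ in this respect was not tested, and both rest on the same 3 Tomatoneg libraries.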

How the results depend on the processing

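Of the alternatives to the main values, 216 kept their direction and stayed within 1.5 times a count or 1 SD of a value, 44 moved further and 4 reversed. The 216 include counts of calls that were 0 in the main fit and stayed 0, which says little where few rows of any kind were called. Without CD24negTomato+ replicate 2, for example, 8 of all rows were called higher and 1 lower. All 4 reversed values came from leaving Tomatoneg replicate 1 out of the CD24+Tomato+ comparison, which gave a gene median of -0.02, a pseudogene median of -0.07, and differences in the mean share of counts of -0.116 percentage points for genes and -0.0072 for pseudogene rows. This library had the lowest ribosomal protein share of the libraries in that comparison, and the cause was not tested. With its same-numbered CD24+Tomato+ library left out too, the gene median was 0.27 and the pseudogene median 0.20. Over the fits that left out 1 library, the gene median ran from -0.9542 to -0.1908 in CD24negTomato+ and from -0.0205 to 0.7192 in CD24+Tomato+, and the pseudogene median from -1.2005 to -0.2863 and from -0.0714 to 0.7225. The difference in gene share ran from -2.99 to -1.04 and from -0.1158 to 1.84 percentage points, and that in pseudogene share from -0.341 to -0.133 and from -0.0072 to 0.202. Pseudogene rows called lower in CD24+Tomato+ numbered 0 to 1.

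With the replicate block, 21 genes were called lower in CD24negTomato+ against 0 without it. That count was 44 with the block and equal totals, 24 with the block and quantile normalization, 21 with pseudogene rows added to their parents, and 58, 0 and 5 without replicates 1, 2 and 3. Pseudogene rows called lower there numbered 5 with the block against 1 without it, 9 with equal totals, 7 with quantile normalization, and 12, 2 and 3 without replicates 1, 2 and 3. In CD24+Tomato+ the block called 6 genes higher against 0 without it, 1 with equal totals, 25 with quantile normalization, 6 with pseudogene rows added, and 3, 7 and 6 without replicates 1, 2 and 3. Pseudogene rows called higher there numbered 1 with the block against 0 without it, 0 with equal totals, 5 with quantile normalization, and 1, 1 and 3 without replicates 1, 2 and 3. The block changed no other count of calls on members by over 1.5 times.

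Without the filter on low values the CD24negTomato+ pseudogene median was -0.25 and 2 pseudogene rows were called higher in CD24+Tomato+, and with a pseudocount of 0.1 the CD24+Tomato+ count of pseudogene rows called lower was 0. The causes of these moves were not tested. The medians kept their direction under each scaling. For CD24negTomato+ genes the median was -0.72 with equal totals, where the median of all rows was -0.12 and not 0.08, and -0.47 with quantile normalization (all rows -0.05). For CD24+Tomato+ genes it was 0.37 (all rows 0.17) and 0.53 (all rows -0.02 and not 0.16). Calls over all rows divided as 134 higher and 43 lower in CD24negTomato+, 98 and 60 with equal totals, and 304 and 190 with quantile normalization. In CD24+Tomato+ they divided as 1113 and 678, 962 and 579, and 991 and 1036. With the block the divisions were 582 and 397, 476 and 822, and 856 and 783 in CD24negTomato+, and 1504 and 1381, 1125 and 1157, and 1725 and 1931 in CD24+Tomato+. Differences of the size seen here were not called gene by gene without the block, and rows that share most of their sequence cannot be measured separately.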
